A study of Rattus norvegicus with 12 samples.

Results

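The Myc, Max and Mxd network is a family of transcription factors that bind DNA in pairs through a basic helix-loop-helix leucine zipper. Its 10 members examined here, Myc, Mycn, Mycl, Max, Mnt, Mxd1, Mxd3, Mxd4, Mxi1 and Mlx, were the rows of the deposited tables that carry these gene symbols, out of 32883 genes. Of the 10 members, 9 were among the 13793 genes that passed a filter on low values (1 rescaled FPKM or more in at least 2 libraries) and were tested. Mycl did not pass, and its levels are given without a test. FPKM is fragments per kilobase of transcript, scaled to the mapped fragments of the library, so levels can be compared between genes.

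The cells were cardiomyocytes, the muscle cells of the heart, taken from newborn Sprague-Dawley rats of 1 to 3 days and grown with AraC, which stops dividing cells. AraC was absent from the medium for the last 24 h before treatment. All groups were then treated for 24 h, and total RNA depleted of ribosomal RNA was sequenced. There were 6 groups of 2 libraries. They combined acetic acid (vehicle), endothelin-1 (ET-1, a peptide hormone, 100 nM) or PE (10 µM phenylephrine, which activates alpha-1 adrenergic receptors) with either DMSO, the solvent control, or JQ1 at 1 µM. JQ1 blocks the bromodomains of the BET proteins. The labels number the libraries of a group 1 and 2 without saying whether each came from its own culture or animal. The p-values therefore reflect the spread between these libraries alone, and that spread may be technical.

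Background on the network helps to read the values. Max is the common partner: paired with Myc, Mycn or Mycl it raises transcription at E-boxes, short DNA motifs, and paired with Mxd1, Mxi1 (also called Mxd2), Mxd3, Mxd4 or Mnt it recruits the Sin3 corepressor to the same motifs. Mlx is a related partner that serves the glucose-sensing factors Mlxip and Mlxipl and can also pair with Mnt, Mxd1 and Mxd4. In the heart, Myc genes are known for growth of the fetal muscle and for induction by hypertrophic stimuli, and in many tumour cells BET inhibition lowers Myc transcription.

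The 12 libraries held 2.34 to 2.97 gigabases of coverage over annotated transcripts and were rescaled by factors of 0.873 to 1.13. The summed level of 9 cardiomyocyte markers lay between 14380 and 26000 rescaled FPKM in every library, against 109 to 1334 for 8 fibroblast markers, 378 to 833 for 5 smooth muscle markers, 0.287 to 4.73 for 5 endothelial markers and 0.359 to 7.72 for 7 macrophage markers, of which 1 was at 0 in all libraries. The fibroblast sum was 506 to 1334 in the replicate 1 libraries and 109 to 324 in the replicate 2 libraries, and within each replicate it was lower with JQ1: all 8 fibroblast genes had negative JQ1 differences, none past the threshold in the fit without replicate and 8 with replicate as a block. Without JQ1, the fibroblast genes also had negative differences with the agonists, 8 of 8 with ET-1 (median −0.54) and 7 of 8 with PE (median −0.38), with 0 past the threshold in either and 7 and 4 with the block. Among all tested genes, 36.9% fell with the block for the averaged JQ1 effect, 9.5% for ET-1 and 12.2% for PE. Other markers passed for JQ1 averaged over treatments without the block, where 30.2% of all tested genes rose and 29.9% fell. Counts near these shares are no result about a cell type. In smooth muscle 3 of 5 fell, Cnn1 (−1.61), Myh11 (−1.24) and Acta2 (−0.88), in macrophages 2 of 3 tested, C1qa (−1.18) and Csf1r (−0.95), and in endothelium 1 of 3 tested, Kdr (−0.95). Of 9 cardiomyocyte markers 1 rose, Tnnt2 (1.05), and 3 fell, Tnni3 (−1.28), Myl3 (−1.10) and Ryr2 (−0.64). The part of these cells in the results on JQ1 and on the agonists was not tested. In bulk RNA, fewer cells of a type and less RNA per cell cannot be told apart.

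Promoter sequences of 8 members were found in the RefSeq table (build GRCr8), as the 250 bases before the annotated start; Myc and Mycn were not in it. The E-box CACGTG, the motif that the network's own dimers bind, occurred in the promoters of 4 of the 8 members, Max, Mnt, Mlx and Mxd4, whereas 5.59% of 33465 rat promoter windows of the same length hold it. The motif reads the same on both strands. It began 33 bases before the start of Max, 123 before that of Mnt, 70 before that of Mlx and 197 before that of Mxd4. These 40-base windows, read 5′ to 3′ on the gene's strand with the E-box in capitals, are shown because they carry the network's own motif in its own genes.
Max: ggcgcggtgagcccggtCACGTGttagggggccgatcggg
Mnt: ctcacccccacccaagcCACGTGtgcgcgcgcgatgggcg
Mlx: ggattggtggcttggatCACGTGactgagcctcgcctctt
Mxd4: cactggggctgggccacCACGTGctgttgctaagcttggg

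The promoters of Mxi1 and Mxd1, the members that JQ1 raised in every treatment, held no CACGTG. They are shown whole, with each GC box (GGGCGG, on either strand) and each CCAAT box (CCAAT, on either strand) in capitals.
Mxi1: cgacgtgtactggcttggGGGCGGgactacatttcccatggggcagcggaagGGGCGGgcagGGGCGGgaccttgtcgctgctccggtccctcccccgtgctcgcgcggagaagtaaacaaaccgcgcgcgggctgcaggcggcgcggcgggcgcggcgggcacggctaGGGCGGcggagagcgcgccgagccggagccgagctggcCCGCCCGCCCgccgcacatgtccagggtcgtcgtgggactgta
Mxd1: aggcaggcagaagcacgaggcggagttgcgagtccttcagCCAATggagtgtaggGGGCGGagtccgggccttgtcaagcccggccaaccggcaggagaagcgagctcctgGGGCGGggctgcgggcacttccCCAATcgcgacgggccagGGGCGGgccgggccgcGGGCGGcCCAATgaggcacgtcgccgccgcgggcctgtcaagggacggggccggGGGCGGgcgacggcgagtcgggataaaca
The Mxi1 window had 6 GC boxes, 2 of which overlap, and no CCAAT box, and the Mxd1 window had 5 GC boxes and 3 CCAAT boxes. A GC box was present in 6 of the 8 member promoters and in 30.5% of all windows, and a CCAAT box in 4 of 8 and 34.0%. The CRE (TGACGTCA) and the AP-1 site (TGACTCA), searched on both strands, were in 0 of the 8 and in 1.59% and 4.05% of all windows. Which of the Mxi1 starts in the deposited files the RefSeq window belongs to was not matched. These matches describe the letters of the windows only.

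With vehicle alone the repressor side was the more abundant. With vehicle and DMSO, the summed FPKM of Mxd1, Mxi1, Mxd4 and Mnt was 43.9 and 46.2, and that of Myc, Mycn and Mycl was 5.35 and 4.92. In descending order of mean (± SD, n = 2), the levels were Mxd4 at 24.9 ± 0.303, Mlx at 18.8 ± 0.380, Mxi1 at 13.3 ± 2.31, Max at 10.1 ± 1.21 and Mxd1 at 4.19 ± 0.403 rescaled FPKM. Below them stood Mnt at 2.698 ± 0.00561, Mycn at 2.66 ± 0.230 and Myc at 2.37 ± 0.0222, and Mycl was at 0.111 ± 0.0527. The 2 libraries of Mnt lay inside the range of those of Mycn, so this pair of neighbours did not differ beyond its spread, whereas the libraries of every other pair of neighbours did not overlap. In build rn6 the gene of Myc spans chr7:102586313-102591240 on the forward strand, Mycn chr6:38222555-38228379 on the reverse, Max chr6:99984260-100011388 on the reverse and Mxd1 chr4:118449882-118472179 on the reverse. Mnt lies at chr10:61685241-61700491, Mlx at chr10:88997399-89002152, Mxd4 at chr14:81819415-81833456, Mycl at chr5:140692779-140698609 and Mxi1 at chr1:274030978-274090071, all on the forward strand. The row named Mxd3 read 42.0 ± 1.56, but most of it is not from a transcript at the Mxd3 position and it is therefore left out of the sums and described separately.

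**Figure D1:**
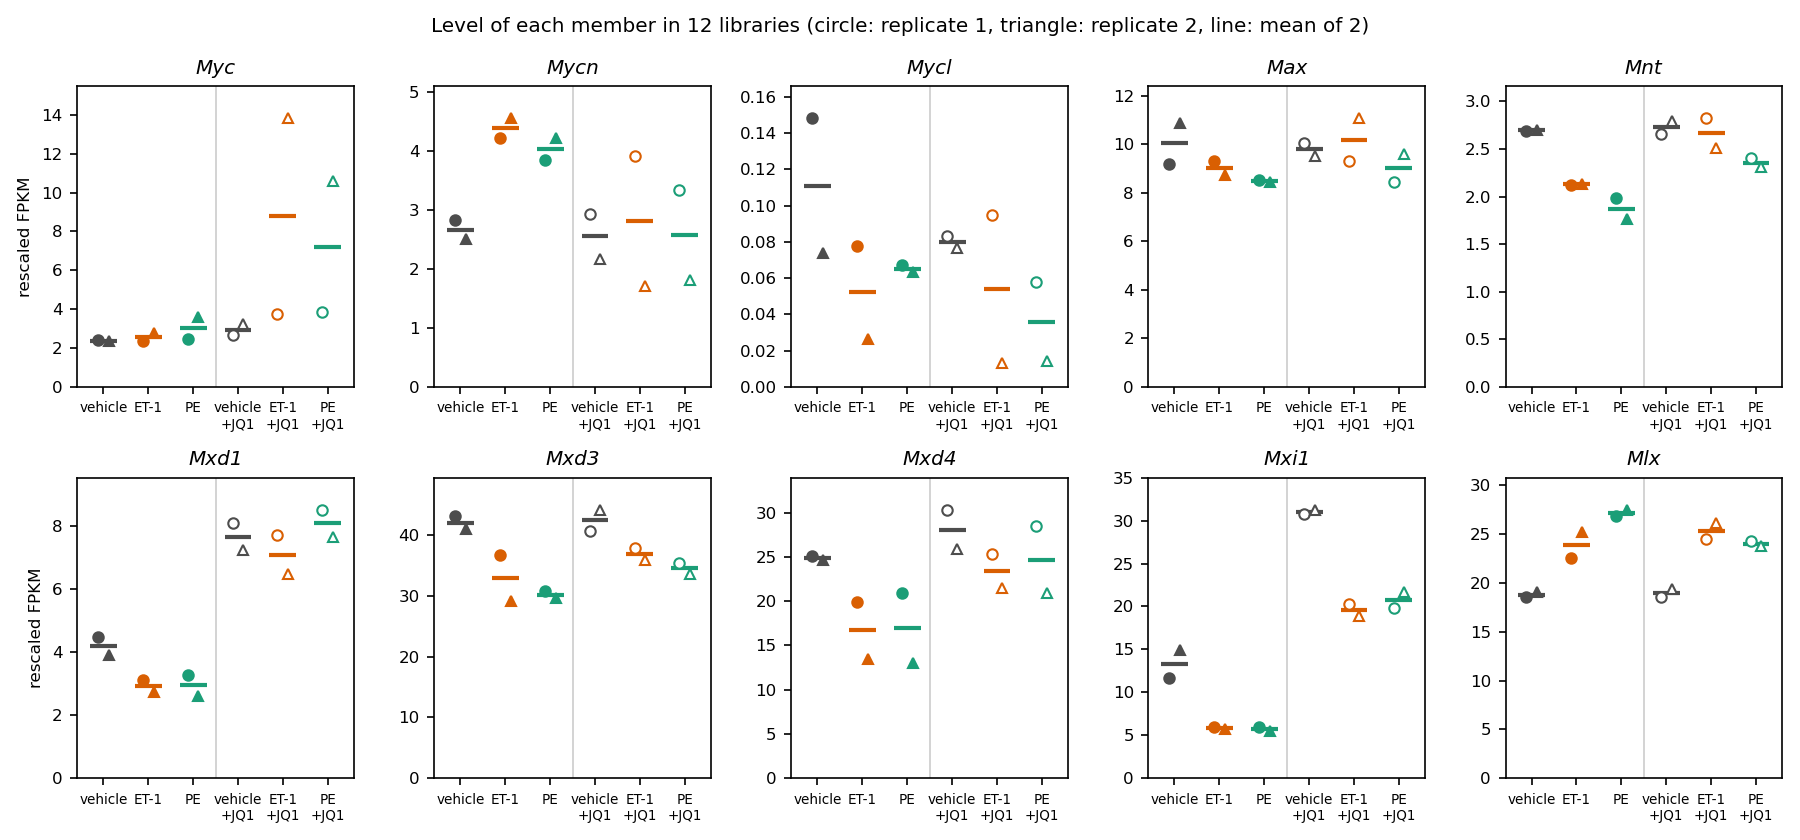
Level of each of the 10 members in the 12 libraries. The y axis is rescaled FPKM on a linear scale from 0, the x axis the 6 groups, circles replicate 1, triangles replicate 2 and lines the mean of 2; open symbols received JQ1. Mxi1 and Mxd1 sit higher in all 6 JQ1 libraries than in the 6 DMSO libraries, Myc stands out in replicate 2 of the ET-1 plus JQ1 and PE plus JQ1 groups, and Mlx is higher with either agonist.

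JQ1 raised the mRNA of 2 repressors, Mxi1 and Mxd1, in vehicle-treated and in agonist-treated cells. Averaged over the 3 treatments Mxi1 rose 2.92-fold and Mxd1 2.12-fold. Myc did not fall in any treatment. In the limma test, 2 of 9 members rose and 0 fell with JQ1 in vehicle, where 32.0% of all tested genes were called, 2 rose and 0 fell in ET-1 (37.5% of genes called), and 2 rose and 0 fell in PE (36.5%). The members called were Mxi1 and Mxd1 each time. For the effect averaged over treatments, 4 of 9 members rose, Mxi1, Mxd1, Mxd4 and Mnt, and 0 fell, against 60.1% of genes called (30.2% up and 29.9% down). The median difference was 0.18 on the log2 scale over the 9 members and 0.02 over all genes. Such shares are near the background or below it, so the count of members called is no result about the network.

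Libraries with the same replicate number deviated together across groups. A fit with replicate number as a block called more genes in every comparison except PE against ET-1, where both fits called 1. With the block, the members called by JQ1 were 2 up and 0 down in vehicle (52.8% of genes called), 5 up and 0 down in ET-1 (56.9%), 4 up and 1 down in PE (56.4%), and 5 up and 1 down for the averaged effect (73.5%). The members that this adds are named with their values below.

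Mxi1 encodes a repressor that competes with Myc for Max. Without JQ1 its level in replicates 1 and 2 was 11.6 and 14.9 rescaled FPKM with vehicle, 5.94 and 5.79 with ET-1 and 5.92 and 5.50 with PE. With JQ1 it was 30.8 and 31.3 with vehicle, 20.3 and 18.8 with ET-1 and 19.8 and 21.7 with PE. All 6 JQ1 libraries lay above all 6 DMSO libraries, and within either arm both vehicle libraries lay above all agonist libraries. On the log2(rescaled FPKM + 0.5) scale used for all tests, which understates the change of low genes, JQ1 raised Mxi1 by 1.21 ± 0.11 (SE) in vehicle, with a limma adjusted p of 0.000370. The difference was 1.66 ± 0.11 in ET-1 (adjusted p = 8.18e-05) and 1.77 ± 0.11 in PE (adjusted p = 7.37e-05). In all 6 JQ1 to DMSO pairs with the same treatment and replicate number, Mxi1 was higher with JQ1, by 1.05 to 1.89 on the log2 scale. The call held in all 19 alternative settings in each treatment.

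Mxd1 encodes the founding Mxd repressor, known for its appearance as cells leave the cell cycle. It was at 4.48 and 3.91 rescaled FPKM with vehicle, 3.12 and 2.74 with ET-1 and 3.29 and 2.62 with PE. With JQ1 the levels were 8.07 and 7.23 with vehicle, 7.70 and 6.47 with ET-1 and 8.50 and 7.64 with PE. The lowest JQ1 library was above the highest DMSO library, and with JQ1 the treatments overlapped. The log2 differences were 0.80 ± 0.14 in vehicle (limma adjusted p = 0.00388), 1.14 ± 0.14 in ET-1 (0.000601) and 1.32 ± 0.14 in PE (0.000369). These calls also held in all 19 alternative settings in each treatment. Over the 12 libraries Mxd1 and Mxi1 had a Pearson correlation of 0.94, a description over libraries that share their treatments.

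Mxd4 and Mnt moved less. Mxd4, a repressor found in differentiated cells, was at 25.1 and 24.7 rescaled FPKM with vehicle, 20.0 and 13.5 with ET-1 and 20.91 and 12.97 with PE, and with JQ1 at 30.3 and 25.9, 25.3 and 21.5, and 28.48 and 20.91. Replicate 1 was the higher library in every group, in PE the lower JQ1 library was level with the higher DMSO library, and with vehicle and ET-1 the JQ1 libraries were above the DMSO libraries. The averaged log2 difference was 0.40 ± 0.15 (limma adjusted p = 0.0458, 0.00242 with the block). By treatment Mxd4 passed only with the block, at 0.49 in ET-1 (adjusted p = 0.175, 0.0195 with the block) and 0.55 in PE (0.133, 0.0117 with the block).

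Mnt, a ubiquitous Max partner that acts as a repressor, was at 2.694 and 2.702 with vehicle, 2.12 and 2.14 with ET-1 and 1.98 and 1.77 with PE. With JQ1 it was at 2.66 and 2.80, 2.82 and 2.52, and 2.41 and 2.31. The JQ1 and DMSO libraries overlapped with vehicle and did not with either agonist. The averaged log2 difference was 0.18 ± 0.06 (limma adjusted p = 0.0269), and it was 0.01 in vehicle and 0.27 in both ET-1 (adjusted p = 0.0726, 0.0286 with the block) and PE (0.0739, 0.0293 with the block). The averaged calls of Mxd4 and Mnt held in 7 and 9 of 18 alternative settings, and in 3 and 4 of the 12 fits among them that left out 1 library. Both were lost when either vehicle library, ET-1 replicate 2, PE replicate 2 or vehicle plus JQ1 replicate 2 was left out.

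**Figure D2:**
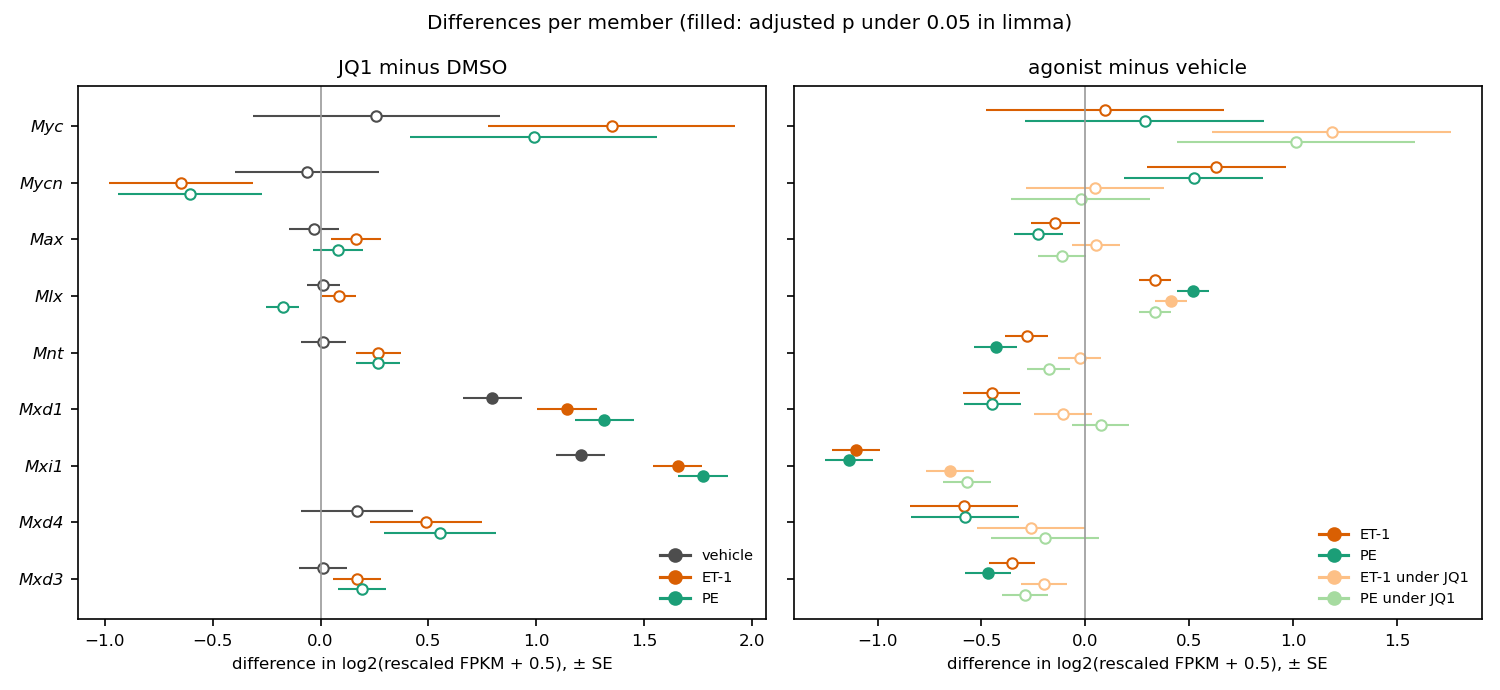
Difference of each tested member in log2(rescaled FPKM + 0.5), ± SE from limma, for JQ1 minus DMSO (left, by treatment) and agonist minus vehicle (right, without and under JQ1); filled points passed an adjusted p of 0.05 in the fit without the block. Mxi1 runs from 1.21 to 1.77 on the left and reaches −1.10 and −1.14 on the right, and Myc has the widest error of the 9.

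Myc itself was low and was lowered by JQ1 in no treatment. Its level was 2.39 and 2.35 rescaled FPKM with vehicle, 2.37 and 2.76 with ET-1 and 2.49 and 3.59 with PE. With JQ1 it was 2.66 and 3.23 with vehicle, 3.75 and 13.8 with ET-1 and 3.83 and 10.6 with PE. The high values were in replicate 2 of the 2 agonist plus JQ1 groups, and in all 6 pairs of the same treatment and replicate number the JQ1 library was the higher. The log2 difference was 0.26 ± 0.57 in vehicle (limma adjusted p = 0.767), 1.35 ± 0.57 in ET-1 (0.100, 0.0234 with the block) and 0.99 ± 0.57 in PE (0.216, 0.0722 with the block). The averaged difference of 0.87 ± 0.33 missed the threshold without the block (adjusted p = 0.0506) and passed with it (0.0108). Without replicate 2 of both agonist plus JQ1 groups, an alternative chosen after seeing the data, it was 0.35 without and 0.42 with the block.

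The deposited tables file 3 transcripts under Myc. The one with 3 exons carried 43.1% to 68.0% of the gene's FPKM, at 2.36 and 6.99 in the ET-1 plus JQ1 libraries and at 1.25 and 1.88 in the ET-1 libraries. For this transcript alone the averaged log2 difference was 0.77 ± 0.28 (limma adjusted p over transcripts = 0.0520, 0.0214 with the block). Its mean coverage per base was 3.31 to 17.9, which limits the precision of the Myc values.

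Mycn, the paralogue that works in fetal heart growth, went the other way in the libraries where Myc stood highest. It was at 2.82 and 2.495 rescaled FPKM with vehicle, 4.22 and 4.55 with ET-1 and 3.84 and 4.22 with PE, and with JQ1 at 2.93 and 2.17, 3.91 and 1.71, and 3.33 and 1.81. Both agonists without JQ1 lay above both vehicle libraries, and the lowest values of all were replicate 2 of ET-1 plus JQ1 and of PE plus JQ1. The averaged JQ1 difference was −0.44 ± 0.19 (limma adjusted p = 0.0814, 0.0308 with the block), and −0.17 (0.153 with the block) without those 2 libraries. The share of Myc in the sum of Myc, Mycn and Mycl was 88.9% and 85.3% in those 2 libraries and 35.6% to 59.0% in the others. Over the 12 libraries Myc and Mycn had a Pearson correlation of −0.67, as a description in which the same 2 libraries are the extremes of both genes.

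Mycl, the third Myc gene, was close to absent, with 0.0130 to 0.148 rescaled FPKM over the 12 libraries and a mean coverage per base of at most 0.419. Max, the shared partner, was called in no comparison, with or without the block. It was at 9.19 and 10.9 with vehicle, 9.30 and 8.74 with ET-1, 8.51 and 8.46 with PE, and 8.46 to 11.1 with JQ1. Its JQ1 and DMSO libraries overlapped with vehicle and PE, and its averaged JQ1 difference was 0.07 ± 0.07 (limma adjusted p = 0.378). Among its 3 annotated transcripts the main one carried 54.6% to 63.9% in every library.

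Whether the response to JQ1 differed between treatments was tested with an interaction. The limma test called 0 of 9 members and 0 of all genes (0.0%) for ET-1 against vehicle, with 616 genes at an unadjusted p under 0.05, and 0 members and 0 genes (0.0%) for PE, with 717 such genes. With the block 0 members were called in either, against 0.0363% and 0.0725% of genes. For Mxi1 the JQ1 difference was larger by 0.45 ± 0.16 in ET-1 (adjusted p = 0.977) and by 0.57 ± 0.16 in PE (adjusted p = 0.765) than in vehicle, and for Mxd1 by 0.35 ± 0.20 and 0.52 ± 0.20.

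The agonists lowered Mxi1, and their differences in Myc were within the error. ET-1 against vehicle gave 1 of 9 members called, Mxi1, which fell, where 2.87% of genes were called. PE against vehicle gave 4 called, Mlx up and Mxi1, Mnt and the Mxd3 row down, where 6.07% of genes were called. With the block ET-1 gave 1 up and 4 down (18.4% of genes called) and PE 1 up and 5 down (24.0%). Both comparisons use the same 2 vehicle libraries, so the values of ET-1 and PE are given side by side and are not independent of each other. The median difference over the 9 members was −0.28 with ET-1 and −0.43 with PE, against −0.02 and −0.01 over all genes.

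Mxi1, at the levels given above, fell by 1.10 on the log2 scale with ET-1 (limma adjusted p = 0.0116) and by 1.14 with PE (adjusted p = 0.00705), that is 2.15-fold and 2.20-fold. The ET-1 call was lost without either vehicle library or without ET-1 replicate 2. The PE call was lost without PE replicate 2. The differences themselves stayed between −1.31 and −0.93 over the alternative settings.

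The other repressors pointed the same way. Mxd1 had differences of −0.45 with ET-1 (limma adjusted p = 0.121, 0.00580 with the block) and −0.45 with PE (0.0985, 0.00445 with the block), and its vehicle libraries lay above all 4 agonist libraries. Mnt had −0.28 with ET-1 (0.179, 0.0570 with the block) and fell by 0.43 with PE (adjusted p = 0.0485), a call that held in 4 of 19 alternative settings and was lost with any single library left out. Mxd4 had −0.58 with both agonists (0.257 and 0.230, 0.0294 and 0.0243 with the block), with all agonist libraries below the vehicle libraries.

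Mlx was the member that the agonists raised. Its level was 18.5 and 19.1 rescaled FPKM with vehicle, 22.6 and 25.3 with ET-1 and 26.8 and 27.5 with PE, and with JQ1 it was 18.6 and 19.4, 24.6 and 26.2, and 24.3 and 23.8. Every agonist library lay above every vehicle library, with or without JQ1. The log2 difference was 0.52 ± 0.08 with PE (limma adjusted p = 0.0130) and 0.34 ± 0.08 with ET-1 (0.0588, 0.0108 with the block). The PE call held in 13 of 19 alternative settings. JQ1 changed Mlx in PE only with the block, by −0.17 (adjusted p = 0.111, 0.0397 with the block).

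Mycn had a difference of 0.63 ± 0.33 with ET-1 (limma adjusted p = 0.336, 0.131 with the block) and 0.52 ± 0.33 with PE (0.398, 0.188 with the block), and Myc of 0.09 ± 0.57 and 0.28 ± 0.57. The fit takes its error from all 6 groups, and the agonist plus JQ1 libraries of both genes lay far apart. Leaving out replicate 2 of both of those groups, chosen after seeing the data, kept the Mycn differences the same in the block fit. It removes that spread by design, so a lower p-value from it is no further evidence of a change in Mycn.

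The agonists were also compared with vehicle under JQ1. ET-1 against vehicle under JQ1 gave Mlx up by 0.41 ± 0.08 (limma adjusted p = 0.0490) and Mxi1 down by 0.65 (adjusted p = 0.0420), 2 of 9 members against 1.36% of genes (with the block 2 of 9 and 11.6%). Both calls were lost when any one library was left out. PE against vehicle under JQ1 gave 0 of 9 members and 0.718% of genes, with 2246 genes at an unadjusted p under 0.05. With the block it gave 2 of 9, Mlx at 0.33 and Mxi1 at −0.57 (adjusted p = 0.0171 and 0.0195), against 12.1% of genes. PE against ET-1 without JQ1 gave 0 of 9 members with and without the block, against 0.00725% of genes in either fit (1 gene), with 206 genes at an unadjusted p under 0.05 without the block.

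The ratio of the summed repressors Mxd1, Mxi1, Mxd4 and Mnt to the summed Myc genes shows both agents at once. It was 8.20 and 9.38 with vehicle, 4.67 and 3.30 with ET-1 and 5.02 and 2.90 with PE. With JQ1 it was 12.7 and 12.3 with vehicle, 7.24 and 3.17 with ET-1 and 8.20 and 4.22 with PE. The vehicle plus JQ1 libraries were the highest and did not overlap with any other group, and in replicate 2 the ET-1 plus JQ1 library lay at the level of ET-1 alone, where Myc was high. No test is given for these sums over members. With all transcripts filed under Mxd3 added, the ratio ran from 5.47 to 20.3 in place of 2.90 to 12.7.

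**Figure D3:**
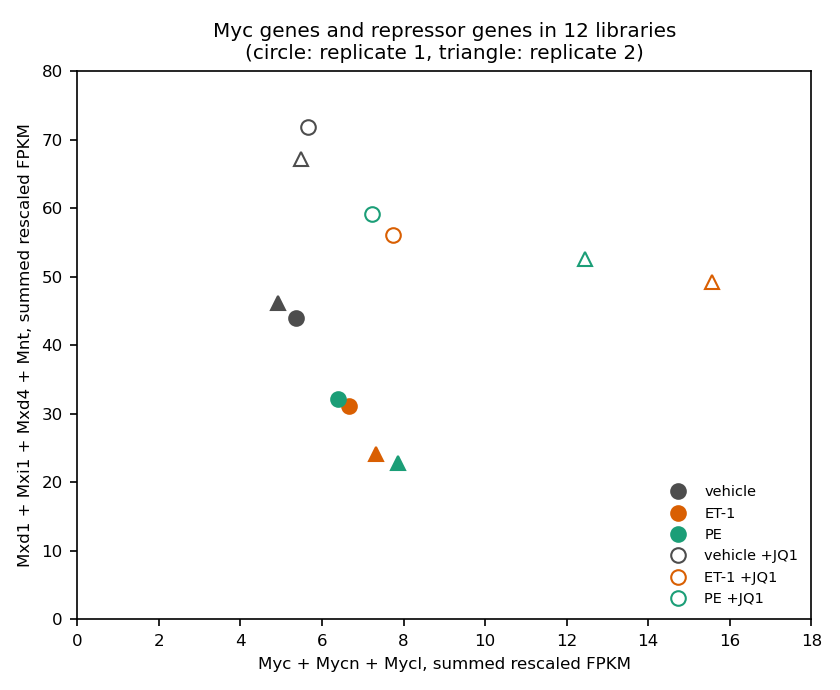
Summed rescaled FPKM of Mxd1, Mxi1, Mxd4 and Mnt (y axis) against that of Myc, Mycn and Mycl (x axis) in the 12 libraries, both axes linear from 0; circles are replicate 1, triangles replicate 2, open symbols JQ1. The agonist libraries without JQ1 lie at the lower right of the vehicle libraries, all JQ1 libraries lie above 49, and 2 open triangles lie far to the right at 12.4 and 15.6.

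Mxi1 has 3 annotated transcripts with different starts. One begins at the first base of the gene (rn6, chromosome 1, 274030978), and the others begin 18.6 and 18.7 kb downstream, at 274049533 and 274049676, so that their first exons differ. The upstream transcript was at 9.03 and 11.8 rescaled FPKM with vehicle, 3.81 and 5.68 with ET-1 and 4.21 and 4.24 with PE, and with JQ1 at 9.75 and 6.31, 10.5 and 9.18, and 10.4 and 0.513. The downstream transcripts summed to 2.61 and 3.10, 2.13 and 0.110, and 1.71 and 1.26 without JQ1, and to 21.0 and 25.0, 9.76 and 9.66, and 9.44 and 21.2 with JQ1. All 6 JQ1 libraries were above all 6 DMSO libraries for the downstream transcripts, while the upstream transcript overlapped.

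In a fit over 16960 transcripts, in which 49.3% were called for the averaged JQ1 effect, the transcript with the last start rose by 2.95 ± 0.39 on the log2 scale (limma adjusted p = 0.000486). The other downstream transcript, at only 0.09 to 3.62 rescaled FPKM, rose by 1.33 ± 0.23 (adjusted p = 0.00200). Its difference was 2.255 in vehicle, 1.295 in ET-1 and 0.44 in PE (limma adjusted p = 0.00673, 0.0460 and 0.466). In PE its JQ1 and DMSO libraries overlapped. The upstream transcript had an averaged difference of 0.04 ± 0.52 (adjusted p = 0.959). Leaving out any one library kept the call of the last-start transcript, at 2.57 to 3.34, whereas the upstream one ranged from −0.53 to 0.61 and passed the threshold without 2 of the 12 libraries. The split between transcripts is an estimate by the authors' assembler from shared exons and was unstable: the upstream share was 2.37% in PE plus JQ1 replicate 2 and 52.4% in replicate 1 of the same group.

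**Figure D4:**
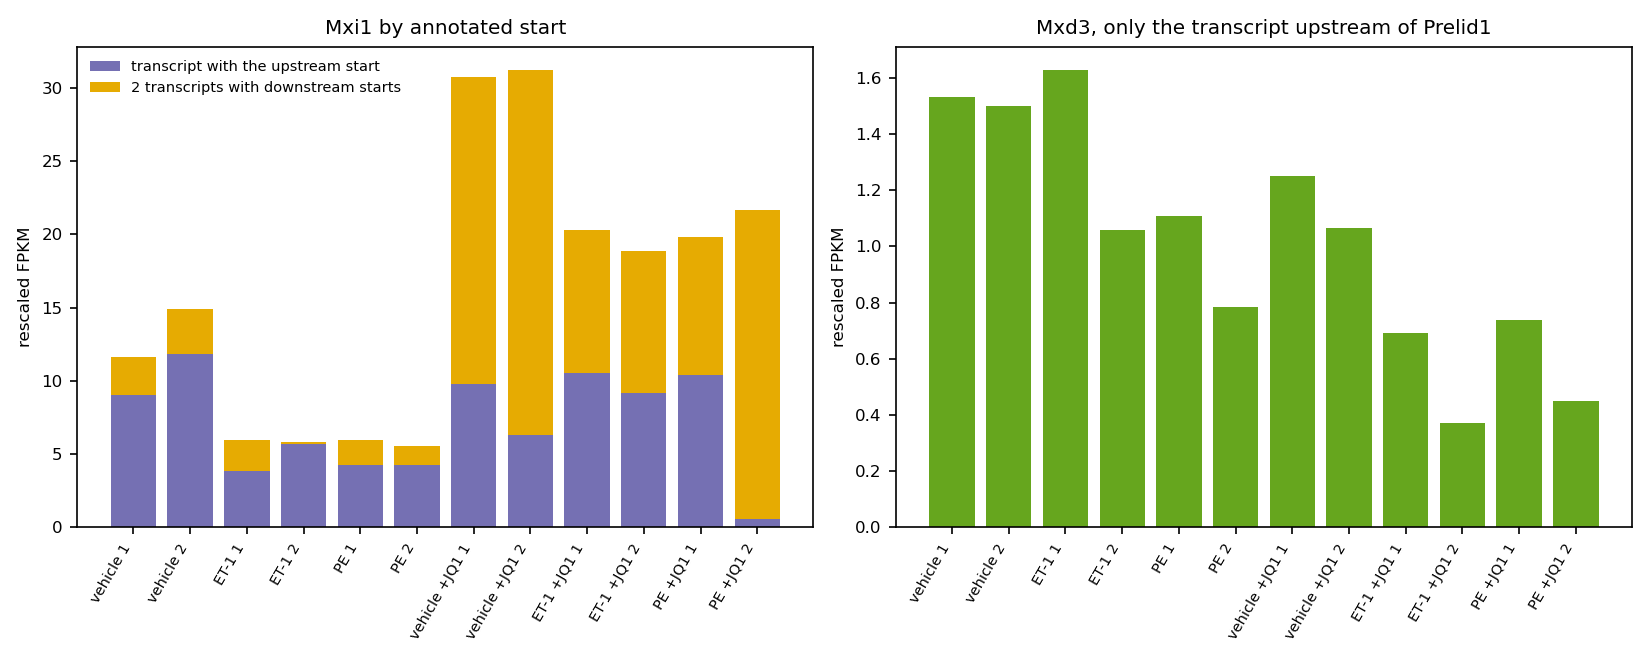
Left, Mxi1 in each library divided between the transcript with the upstream start and the 2 transcripts with downstream starts; right, the only transcript filed under Mxd3 that lies at the Mxd3 position. The y axes are rescaled FPKM from 0 and the x axes the 12 libraries. The downstream part of Mxi1 is 0.110 to 3.10 without JQ1 and 9.44 to 25.0 with it, and the Mxd3 transcript falls to 0.371 in replicate 2 of ET-1 plus JQ1.

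The row named Mxd3, a repressor gene known for its expression in dividing cells, joins 2 places on chromosome 17 (rn6). One transcript spans 9830332 to 9837293, overlapping Prelid1 on the opposite strand. The other 3 lie downstream of it on the row's forward strand, between 9837259 and 9839452. That is at and beyond the start of Prelid1, which runs the other way. By position RefSeq orders the genes Mxd3, Prelid1 and Rab24, and no row in the deposited tables is named Rab24. A single downstream transcript held 84.7% to 88.7% of the row's FPKM and the upstream transcript 1.04% to 4.44%. The level of the row, 43.1 and 40.9 with vehicle, 36.7 and 29.1 with ET-1, 30.8 and 29.5 with PE, and 33.6 to 44.1 with JQ1, is therefore mostly that of the downstream place. The row fell with PE by 0.47 ± 0.11 (limma adjusted p = 0.0467, held in 6 of 19 alternative settings), had −0.35 with ET-1 (0.127, 0.0380 with the block), and had 0.12 ± 0.06 with JQ1 (0.126).

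With JQ1 the row was not called, and the upstream transcript alone moved in the opposite direction. This transcript had a mean coverage per base of only 0.950 to 4.79, which limits the precision of its values. It was at 1.533 and 1.502 rescaled FPKM with vehicle, 1.63 and 1.06 with ET-1 and 1.11 and 0.783 with PE, and with JQ1 at 1.25 and 1.07, 0.690 and 0.371, and 0.740 and 0.450. In each treatment both JQ1 libraries were below both DMSO libraries. The averaged log2 difference was −0.51 ± 0.15 (limma adjusted p = 0.0234, 0.00268 with the block), and it was −0.84 ± 0.26 in ET-1 (0.0462, 0.00606 with the block). Of 12 fits that each left out 1 library, the averaged call held without the block in 6 and the ET-1 call in 1 (adjusted p up to 0.223), and with the block both held in 12. The 16 proliferation genes, which sum to 484 to 557 rescaled FPKM without JQ1 and 234 to 376 with it, all fell with JQ1 in the averaged comparison, where 29.9% of all genes fell. They were led by the helicase subunits Mcm3 (−2.09), Mcm6 (−1.96) and Mcm2 (−1.45), and the part of these genes in the result on the upstream transcript was not tested. Nor was that of reads from Prelid1, and the strand setting of the authors' quantification was not given in the sources used here.

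Genes listed as raised by Myc did not move one way with JQ1. Of 65 such genes, mostly of ribosome assembly, nucleotide synthesis and metabolism, 12 rose and 20 fell for the averaged effect, where 30.2% of all genes rose and 29.9% fell, so the share that rose was below that of all genes and the share that fell close to it. The list had a median of −0.05 against 0.02 over all genes. The 3 with the largest falls were Mcm5 and Mcm4, of the replicative helicase, at −1.90 and −1.36, and the nucleoside transporter Slc29a2 at −1.45 (limma adjusted p = 7.43e-06, 1.66e-05 and 6.55e-05). The 3 with the largest rises were the exosome subunit Exosc5 at 1.16, the ribosome assembly factor Bop1 at 0.84 and the methyltransferase Prmt3 at 0.61 (adjusted p = 1.78e-05, 0.000457 and 0.0125). Of 8 genes listed as lowered by Myc, against the same shares of all genes, 2 rose, the growth arrest genes Gadd45a at 1.29 and Cdkn1a at 0.74 (adjusted p = 5.27e-05 and 0.00244), and 1 fell, Ndrg2 at −0.44 (adjusted p = 0.00648).

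With the agonists few Myc targets were called. ET-1 raised 2 of 65 and lowered 1, where 1.31% of all genes rose and 1.57% fell. PE raised 2 and lowered 2, where 2.89% rose and 3.18% fell. The list's median was 0.26 with ET-1 and 0.27 with PE, with 57 of 65 genes on the positive side in each, and the median over all genes was −0.02 and −0.01. With the block 11 rose and 2 fell with ET-1, where 8.89% of all genes rose and 9.5% fell, and 12 rose and 3 fell with PE, where 11.8% rose and 12.2% fell.

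**Figure D5:**
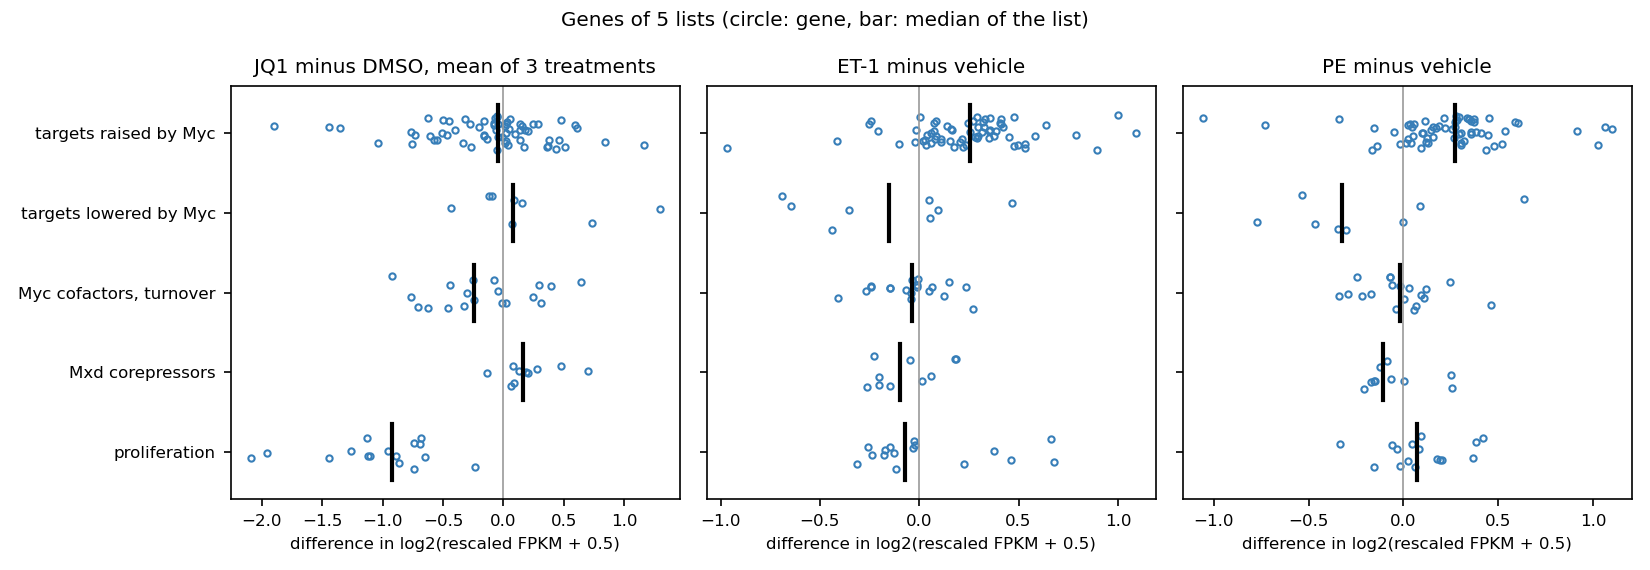
Difference in log2(rescaled FPKM + 0.5) of the genes of 5 lists (circles; bars, list medians) for the averaged JQ1 effect, ET-1 and PE, with a small vertical jitter. The targets raised by Myc centre on −0.05 with JQ1 and on 0.26 and 0.27 with ET-1 and PE, and the 16 proliferation genes lie below 0 with JQ1.

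Cofactors and turnover genes of Myc were divided: 5 of 19 rose and 9 fell with JQ1, with a median of −0.24, where 30.2% of all genes rose and 29.9% fell. The histone acetyltransferase scaffold Trrap rose by 0.64 (limma adjusted p = 2.94e-05), and the phosphatase subunit Ppp2r5a (0.40) and the ubiquitin ligase Huwe1 (0.31) rose as well, at adjusted p = 0.000459 and 0.0169. Skp2, a ubiquitin ligase subunit, was at −0.92, Cip2a, which shields Myc from PP2A, at −0.76 and the helicase Ruvbl1 at −0.71 (adjusted p = 4.89e-05, 5.62e-05 and 1.09e-05). Among 10 genes of the corepressor complexes that Mxd proteins recruit, 5 rose and 0 fell, with a median of 0.16, against the same 30.2% and 29.9% of all genes. They included Arid4b at 0.70, Sin3b at 0.47 and Sin3a at 0.28 (adjusted p = 1.11e-05, 6.04e-05 and 0.00486). With the block, the averaged JQ1 effect gave 6 of the 10 up and 1 down, against 36.6% and 36.9% of all genes. Neither agonist gave a call among the 10 corepressor genes in limma without the block, where 2.87% of genes were called with ET-1 and 6.07% with PE. The block gave 0 with ET-1 and 1 with PE, against 18.4% and 24.0% of genes.

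Of the Mlx branch, Txnip, a glucose-responsive target of Mlx dimers, rose by 1.28 ± 0.18 with JQ1 (limma adjusted p = 0.000422), from 104 ± 16.97 to 286 ± 156 rescaled FPKM (SD, n = 2) in vehicle. Mlxip, the Mlx partner also called MondoA, rose by 0.35 (adjusted p = 0.0309), at a low level of 1.17 to 2.42 rescaled FPKM. Arrdc4, another target of Mlx dimers, was at 0.25 (adjusted p = 0.440), and Mga, a large Max partner, at 0.06 (adjusted p = 0.413). So 2 of these 4 genes rose with JQ1, where 30.2% of all tested genes rose. Neither agonist changed any of the 4 past the threshold, where 2.87% of genes were called with ET-1 and 6.07% with PE. Counts over 4 genes are no result about this branch. Txnip was at −0.58 with ET-1 and −0.54 with PE (adjusted p = 0.349 and 0.354). Mlxipl has no row in the tables.

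The genes most like each member were found by the Pearson correlation of log2 values over the 12 libraries, which share treatments and replicate numbers. For Mxd1 these were Atrnl1, LOC102548514 and Sesn3 at 0.99 to 1.00, and for Mxi1 Bbs2, Ciao1 and Irf2bp1 at 0.99. For Myc they were Ghitm, Pus3 and Chac1 at 0.97, and for Mycn Fdps, AABR07012058.2 and Sparc at 0.93. For Mxd4 they were Itm2b, Ccng2 and Itm2a (0.97 to 0.98), for Mnt Klf15, Zfp319 and Sipa1l1 (0.96), and for the Mxd3 row Spns1, Plekhf1 and Fam149b1 (0.95 to 0.98). Mlx had AC109542.2, AABR07006025.2 and AABR07033236.1 (0.96 to 0.99), and Max, with the least like neighbours, Mknk1, Naa16 and LOC100912042 (0.82 to 0.89). The neighbours of Mlx were low, at 0.481 to 2.03 rescaled FPKM for AC109542.2, 0.489 to 2.25 for AABR07006025.2 and 0.205 to 1.10 for AABR07033236.1. They reached the filter level of 1 rescaled FPKM only in libraries with an agonist, where Mlx was also higher. Among the members, Mlx correlated negatively with the Mxd3 row (−0.87) and with Mnt (−0.70).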

How the data were processed

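RNA-seq of 12 libraries (6 groups of 2) was used as transcript tables. Per the submitters' processing notes reads were handled with StringTie 1.3.4d, STAR 2.7.1a, Trim Galore 0.6.0 and DESeq2 1.24.0 on build rn6 (Rnor_6.0), in an order and with a strand setting not given in the sources used here. The deposited values are FPKM per transcript, and the deposited coverage per base (signal) was used for depth and to describe precision. No read counts were used, so count tests were not run, and depth is known as coverage only.

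FPKM of 41078 transcripts were summed by gene ID to 32883 genes and rescaled by the median of ratios over 15551 genes. The test was limma 3.58.1 (R 4.3.3) on log2(rescaled FPKM + 0.5), with 6 group means over all 12 libraries, a mean-variance trend and robust moderation, and Benjamini-Hochberg adjustment over 13793 genes per comparison at 0.05. The fit was also run on simulated data with independent noise in each library. That simulation held no pairing by replicate number, so it does not cover this feature of the data. Tables and figures used Python 3.11.15 with pandas 2.3.3, numpy 2.4.6 and matplotlib 3.10.9. Transcripts were fitted the same way.

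Replicate numbers were checked for pairing: deviations from group means correlated between same-numbered libraries in all 15 pairs of groups, at 0.155 to 0.672. The labels give no meaning to the number; the pairing comes from the data. For the members, the blocked value is given where it changes a call.

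The members and all gene lists were chosen with earlier results of these data known. Named beside the members were the 3 genes most correlated with each member, the network partners, and in each list the genes called for the averaged JQ1 effect, at most 3 in each direction. Marker lists of other cell types were cardiomyocyte, fibroblast, smooth muscle, endothelial and macrophage. Alternatives were other pseudocounts, no filter, values as deposited, rescaling from longer genes, only the compared libraries, the block, and each library left out. Leaving out a library with the block, single transcripts of Mxd3 and Myc, and leaving out replicate 2 of both agonist plus JQ1 groups were added after seeing the data.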

Additional observations from a re-analysis of the deposited data

How the results depend on the processing

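With the replicate block, the members called numbered 5 for JQ1 in ET-1 and 5 in PE (2 each without it), 5 for ET-1 against vehicle (1 without), and 2 for PE against vehicle under JQ1 (0 without); it moved no other count by over 1.5 times and, beyond the calls given with their blocked values above, changed no other. The cause of each change below was not tested, except that fewer libraries were used where that is stated. From only the compared libraries, ET-1 against vehicle gave 0 members without JQ1 and 0 under JQ1, and PE against vehicle 0; limma then called 0 of all genes in each, with 2483, 1334 and 2784 at an unadjusted p under 0.05, and 2933, 2346 and 3124 genes for JQ1 in vehicle, ET-1 and PE in place of 4411, 5168 and 5030. On the values as deposited, PE against vehicle gave 1 and ET-1 under JQ1 0; it called 211 genes for ET-1 and 536 for PE against vehicle in place of 396 and 837, and 25 and 31 under JQ1 in place of 187 and 99. That scaling moved the median of all genes to −0.13 for PE and −0.11 for ET-1 against vehicle. The share of higher genes among those called for the averaged JQ1 effect moved from 50.3% to 39.5%. For JQ1 in vehicle it moved from 47.9% to 31.3%, in ET-1 from 47.8% to 31.9% and in PE from 48.0% to 38.7%. For PE against vehicle without JQ1 it moved from 47.6% to 35.3%. ET-1 under JQ1 also gave 0 members and 88 genes with no filter on low values, where PE under JQ1 gave 34 genes, PE against ET-1 9 and the 2 interactions 10 and 13, and 1 member when rescaled from genes of at least 400 nt. Leaving out 1 library gave 2 to 4 calls for JQ1 in ET-1 (4 without ET-1 plus JQ1 replicate 1), 2 to 4 for the averaged effect, 0 to 1 for ET-1 and 0 to 3 for PE against vehicle (0 without PE replicate 2), and 0 to 0 for ET-1 under JQ1; over all genes it gave 0 to 339 calls for ET-1 and 3 to 851 for PE against vehicle, 0 to 280 and 0 to 162 under JQ1, and 2583 to 4383, 3562 to 4961 and 3313 to 5052 for JQ1 in vehicle, ET-1 and PE, 0 to 3 for PE against ET-1, and 0 to 1 and 0 to 2 for the interactions of ET-1 and PE. The PE interaction called 2 genes with a pseudocount of 1 and 1 from only the compared libraries, in place of 0. The upstream transcript of Mxd3, at low coverage, reversed the direction of the row, at −0.51 averaged and −0.84 in ET-1. The row itself was called in neither. Mxi1 and Mxd1 under JQ1 kept direction and call in every alternative setting, single-transcript fits aside. Coverage below 20 per base in every library limits Myc, Mycn, Mnt and the upstream Mxd3 transcript. It also reached below 20 for Mxd1 (6.95 to 23.5), the main Max transcript (12.55 to 22.05) and each Mxi1 transcript. The 2 libraries a group limit every call.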

Other observations

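Replicate 2 of the ET-1 plus JQ1 and PE plus JQ1 groups stood apart in more than Myc, in genes chosen after their values were seen. Ranked by the smaller of the 2 log2 differences between replicate 2 and replicate 1 in these groups, Myc was number 30 of 13793 genes, at 1.36. Asparagine synthetase, Asns, was at 71.9 and 72.2 rescaled FPKM in these 2 libraries and at 12.2 to 34.6 in the others. The cationic amino acid transporter Slc7a3 was at 14.1 and 16.6 against 0.912 to 6.57, and the glutathione-degrading enzyme Chac1 at 17.2 and 14.98 against 1.57 to 3.95. The pseudokinase Trib3 was at 19.02 and 17.5 against 4.59 to 10.9, and Atf4, the transcription factor of the amino acid response, at 357 and 318 against 146 and 166 in replicate 1 of the same groups. Ddit3, another gene of stress responses, did not share the pattern, at 111 and 102 in the 2 libraries and 114 and 106 in replicate 1 of the same groups. The gene at the top of the ranking was a small-RNA gene model named RF00017, with a difference of 6.54. With 2 libraries in a group, which of the 2 replicates is typical of its condition cannot be told from these data.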
